A study of Homo sapiens with 12 samples.

Results

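The BCL2 family of apoptosis regulators was followed in 2 liver tumour cell lines, Huh7 and HepG2, that had been selected for resistance to sorafenib, and in their parental cells. Members were the genes with the symbols BCL2, BCL2L1, MCL1, BAX, BAK1, BID, BCL2L11, BBC3, PMAIP1 and BMF. Of these 10 genes, 9 had a value in the expression tables, out of 27249 genes with an Ensembl identifier, and BCL2L1 was not analysed here. Each of the 12 samples had 1 table of FPKM, a read level scaled to the exon length of the gene and to the size of the library, so that levels of different genes can be set side by side.

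The samples fell into 4 groups of 3. Huh7 resistant and HepG2 resistant cells were given sorafenib, a multikinase inhibitor used in hepatocellular carcinoma (HCC), first at 10 μmol for 24 h in 6-well plates. The drug was then removed, the surviving cells were grown on, and rounds with rising doses went on for 8 months. Huh7 parental and HepG2 parental cells, which the labels call sorafenib sensitive, had no treatment, and all 4 groups carry the genotype label WT. Each line was selected once as far as the labels say, no source says whether clones were picked or whether the 3 samples of a group were separate cultures, and p-values therefore measure the spread between these samples, which may be technical. Whether the resistant cells were in drug at harvest is not given in the sources used here.

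Libraries held 12290128 to 19285957 reads, calculated back from the FPKM, and the Pearson correlation of log2 levels between samples of a group was 0.9807 to 0.9909. All 12 liver cell markers listed reached 1 FPKM in every group, and their summed level was lower in resistant cells. Their summed level was 5474 to 5641 FPKM in Huh7 resistant against 8068 to 9922 in Huh7 parental cells, and 5600 to 5886 in HepG2 resistant against 6661 to 7680 in HepG2 parental cells, without overlap in either line. In Huh7 5 of the 12 rose and 3 fell, where 70.1% of all genes passed an adjusted p under 0.05. In HepG2 4 fell and 8 did not pass, where 20.0% of all genes passed. Much of the difference in the sums was that of AFP, the fetal liver protein. Its mean was 5332 FPKM in Huh7 parental and 2291 in Huh7 resistant cells, and 1394 and 366 in HepG2 parental and resistant cells. AFP had log2 fold changes of -1.21 in Huh7 and -1.91 in HepG2, and ALB -0.46 and -0.93. Their part in the results was not tested. Of 11 markers of other cell types, 2 to 5 reached 1 FPKM in a group, and their summed level was 59.2 to 85.8 FPKM in Huh7 resistant, 9.19 to 12.3 in Huh7 parental, 28.1 to 41.8 in HepG2 resistant and 23.6 to 36.4 in HepG2 parental cells. KRT19, a keratin of bile duct cells, made up most of that sum in Huh7 resistant cells, at 70.4 ± 13.6 FPKM against 7.18 ± 1.40 (SD, n = 3) in Huh7 parental cells, and its part in the results was not tested. A second whole-library feature moved with resistance in Huh7: GC-rich genes had higher log2 fold changes there (Spearman rho 0.63 across 12545 genes, which are not independent replicates), and in HepG2 rho was 0.03 over 11756 genes. Each Huh7 test of a member is therefore also given with the GC trend of each library removed. In bulk RNA, fewer cells expressing a gene and less RNA per cell cannot be told apart.

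The family sets whether the outer membrane of mitochondria is opened during apoptosis. BAX and BAK form the pores that release cytochrome c, the anti-apoptotic proteins BCL2 and MCL1 hold them in check, and the BH3-only proteins relay stress signals by binding the anti-apoptotic proteins or by activating BAX and BAK directly. Among the BH3-only genes, BID is cut by caspase-8 and links death receptors to mitochondria, BCL2L11 encodes BIM, BBC3 encodes PUMA, PMAIP1 encodes NOXA, which binds MCL1, and BMF encodes a protein kept at the cytoskeleton. MCL1 is a short-lived protein on which many liver cells depend, and sorafenib is known to lower it; its level is also set by translation and by ubiquitin enzymes.

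The promoters of 4 members that are central to the comparisons are shown first, from 250 bases before to 50 bases after the RefSeq transcription start in GRCh38.p14, each on the strand of its gene. Capitals mark the matches on either strand to 7 motifs. These were GGGCGG, the GC box of SP1 factors; TATAAA, the core promoter TATA box; TGACGTCA, the cyclic AMP response element; TGTTTAC, read by forkhead proteins; CACGTG, the E-box read by MYC among others; CCAAT, read by the NF-Y complex; and TGATGNAA, an element of ATF4 dimers. No matches of different motifs overlapped in the printed windows. The BAX window is chr19:48954625-48954924 on the plus strand, that of BID chr22:17774616-17774915 on the minus strand, that of PMAIP1 chr18:59899746-59900045 on the plus strand and that of BMF chr15:40108830-40109129 on the minus strand. BID has 5 and BMF 2 RefSeq entries, of which 1 each is shown.
BAX: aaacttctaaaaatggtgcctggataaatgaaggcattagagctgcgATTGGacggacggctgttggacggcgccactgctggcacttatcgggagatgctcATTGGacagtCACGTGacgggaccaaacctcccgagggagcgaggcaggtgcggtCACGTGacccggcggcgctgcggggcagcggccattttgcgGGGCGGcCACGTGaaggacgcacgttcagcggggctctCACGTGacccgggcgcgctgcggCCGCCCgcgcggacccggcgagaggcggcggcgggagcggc
BID: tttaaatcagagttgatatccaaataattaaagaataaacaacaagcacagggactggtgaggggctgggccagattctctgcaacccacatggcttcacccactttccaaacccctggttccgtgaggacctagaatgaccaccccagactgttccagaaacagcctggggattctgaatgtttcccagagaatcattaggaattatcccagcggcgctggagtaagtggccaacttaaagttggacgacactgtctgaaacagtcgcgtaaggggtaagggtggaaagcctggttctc
PMAIP1: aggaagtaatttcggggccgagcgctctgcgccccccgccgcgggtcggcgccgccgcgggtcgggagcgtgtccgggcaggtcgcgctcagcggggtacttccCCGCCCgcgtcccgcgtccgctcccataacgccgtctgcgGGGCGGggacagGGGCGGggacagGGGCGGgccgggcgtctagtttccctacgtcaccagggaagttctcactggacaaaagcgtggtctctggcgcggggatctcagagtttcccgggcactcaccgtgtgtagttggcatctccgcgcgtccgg
BMF: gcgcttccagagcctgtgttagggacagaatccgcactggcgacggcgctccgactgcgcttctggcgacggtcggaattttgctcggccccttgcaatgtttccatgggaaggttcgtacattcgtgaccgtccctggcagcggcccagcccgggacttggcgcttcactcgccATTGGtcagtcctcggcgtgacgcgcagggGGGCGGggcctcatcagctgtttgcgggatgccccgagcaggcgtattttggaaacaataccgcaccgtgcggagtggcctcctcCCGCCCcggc

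The 4 windows differed in these motifs. BAX held 4 CACGTG matches, and 5 of 35116 promoters (0.0142%) held 4 or more, while 7.26% held at least 1. PMAIP1 held 4 GC boxes, which 9.06% of promoters also reached or passed, and BMF held 2 GC boxes and 1 CCAAT box, motifs found in 45.0% and 34.6% of promoters. None of the 7 letter strings was in the BID window, and the TGTTTAC string, found in 3.42% of promoters, was in that of BCL2L11 alone among the 8 members with an entry. These matches describe the sequence and not the binding of a factor.

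In levels, MCL1 was the most abundant member in 3 groups, and in Huh7 resistant cells MCL1 and BID overlapped. Group means of MCL1 were 32.0 to 66.6 FPKM, those of BID, BCL2L11, BAK1, BAX and BMF lay between 2.27 and 33.1, those of PMAIP1 between 1.36 and 4.47, and those of BCL2 and BBC3 reached at most 1.29 FPKM. The lowest counts behind a value were 5 to 26 reads for BBC3 and 15 to 271 for BCL2, against 2223 to 4926 for MCL1, so BBC3 and the Huh7 values of BCL2 are the least precise. In the plot of levels by sample, the resistant and parental points of MCL1, BAX and BMF are apart in both lines, those of BAK1, BID, BCL2L11 and BBC3 in Huh7 alone, and those of PMAIP1 in HepG2 alone.

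**Figure D1:**
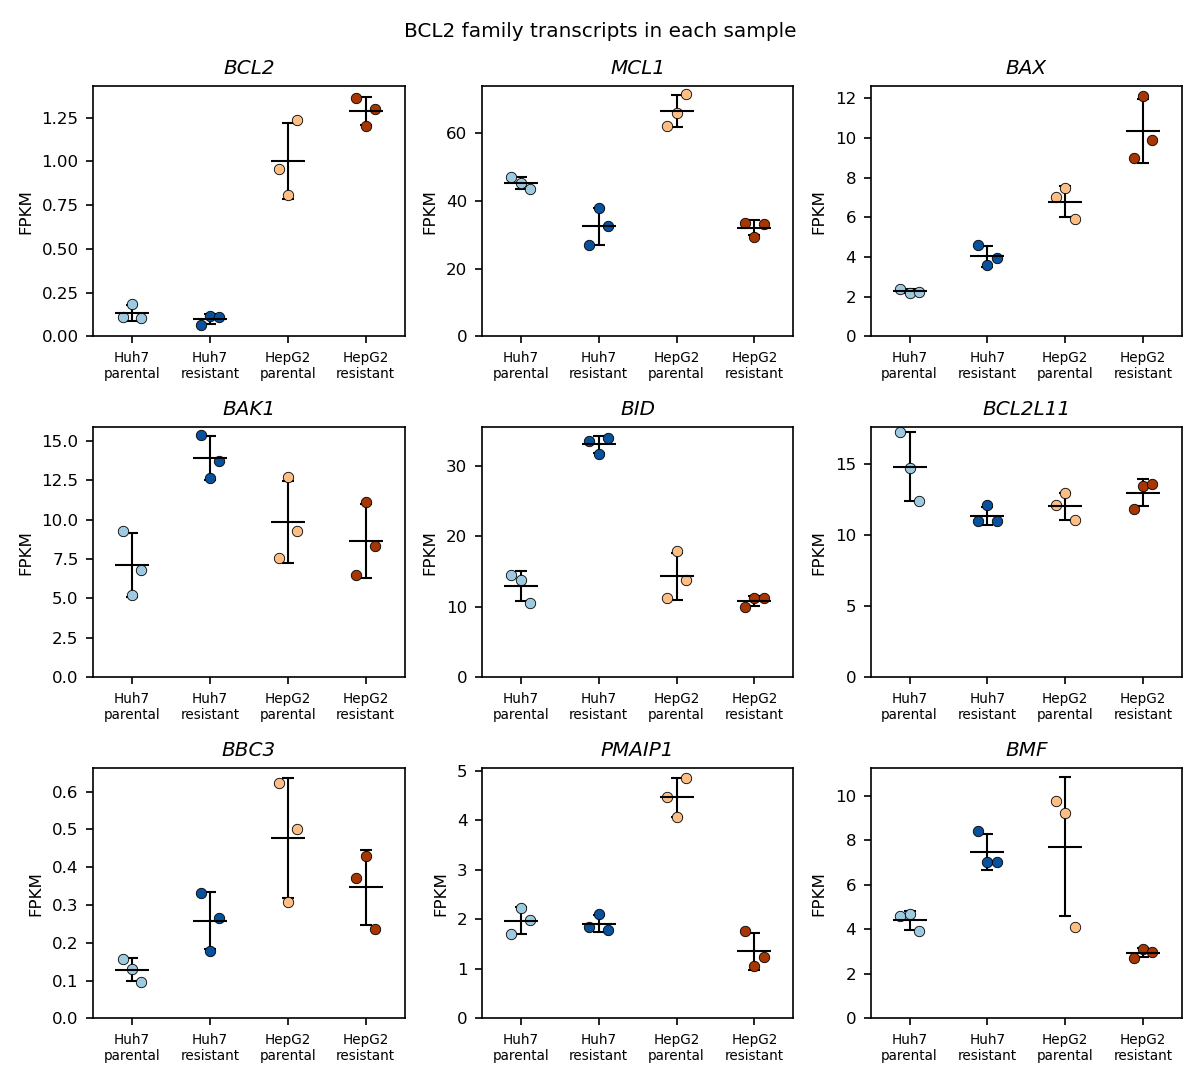
FPKM (linear axis from 0, a separate scale for each gene) of the 9 members in the 12 samples. Points are samples, horizontal bars the means and error bars the SD (n = 3). MCL1 lies lower and BAX higher in the resistant samples of both lines, BID is raised in Huh7 resistant samples, and PMAIP1 is highest in HepG2 parental samples.

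Differences between resistant and parental cells were tested with limma on log2(FPKM + 1) in each line, keeping genes that reached 1 FPKM in 3 or more of the 6 samples. A gene was taken as risen or fallen when the p adjusted over all genes tested was under 0.05, and as called when its log2 fold change was also beyond 1 in either direction. In Huh7, 7 members were tested, 4 rose (BAX, BAK1, BID and BMF), 2 fell (MCL1 and BCL2L11), and PMAIP1 did not pass; 70.1% of all genes tested passed the same adjusted p. Only BID was called in Huh7, where 22.6% of all genes were called. In HepG2, 8 members were tested, BAX rose, MCL1, PMAIP1 and BMF fell, and BCL2, BAK1, BID and BCL2L11 did not pass, where 20.0% of all genes passed. MCL1, PMAIP1 and BMF were the 3 called in HepG2, where 6.27% of all genes were called. The median log2 fold change of the members tested was 0.62 in Huh7, where that of all genes was -0.04, and -0.26 in HepG2, where that of all genes was 0.12. The Huh7 median of the members with the GC trend removed was 0.13, that of all genes was 0.01, and 4 of the 7 members passed (BID and PMAIP1 higher, MCL1 and BCL2L11 lower). Of all genes in that corrected fit, 7982 of 12545 passed.

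**Figure D2:**
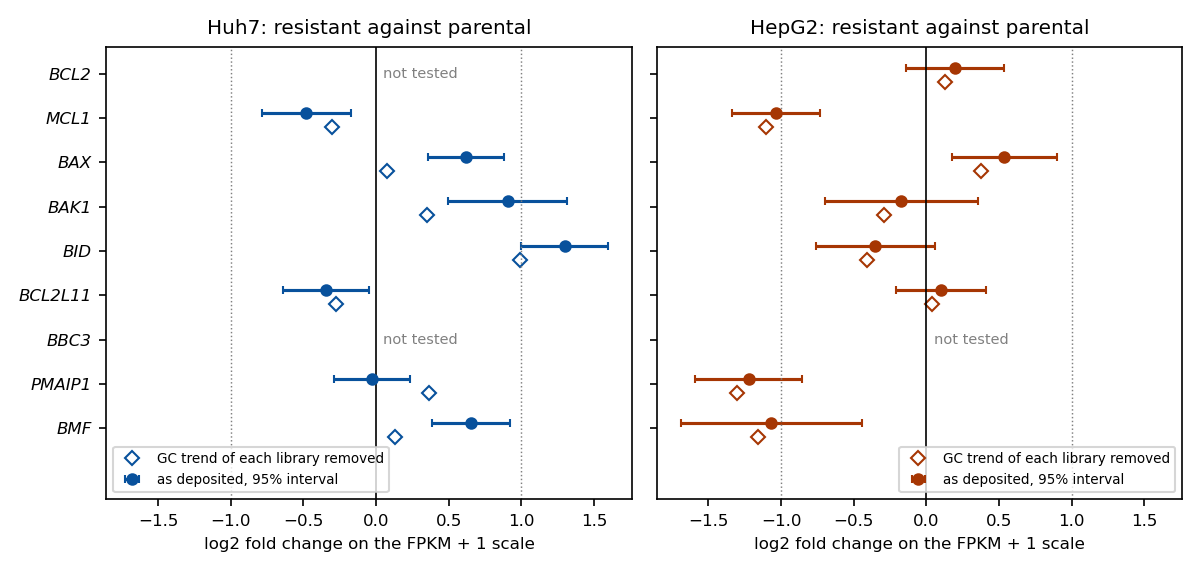
Log2 fold change of each member on the FPKM + 1 scale, resistant against parental, in Huh7 (left) and HepG2 (right). Filled circles are the values with their 95% intervals (n = 3 in each group), open diamonds the values without the GC trend of the libraries, and dotted lines mark -1 and 1. In Huh7 the diamonds of BAX, BAK1 and BMF lie well below their circles, and in HepG2 circles and diamonds are close.

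MCL1 (ENSG00000143384, chr1:150574551-150579738, minus strand, GRCh38) was lower in the resistant cells of both lines. It was the more abundant of the anti-apoptotic members analysed, and BCL2L1 was not among them. The FPKM of MCL1 in HepG2 resistant cells was 33.4, 29.4 and 33.2, against 62.1, 66 and 71.7 in HepG2 parental cells. In Huh7 it was 26.8, 37.8 and 32.7 in resistant and 46.9, 45.3 and 43.5 in parental cells. Every resistant sample lay below every parental sample of its line, and the gap was wider in HepG2. The log2 fold change was -1.03 (SE 0.133, adjusted p = 0.00192) in HepG2 and -0.48 (SE 0.134, adjusted p = 0.0114) in Huh7. The HepG2 call is near the limit of size, since the log2 fold change was -0.98 without HepG2 resistant replicate 2 and also without HepG2 parental replicate 3. With the GC trend removed it was -1.10 in HepG2 and -0.30 in Huh7 (adjusted p = 0.0182 in Huh7).

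BCL2 (ENSG00000171791, chr18:63123346-63320128, minus strand), the founding anti-apoptotic gene, was scarce in Huh7. It was 1.36, 1.20 and 1.30 FPKM in HepG2 resistant and 0.958, 0.809 and 1.24 in HepG2 parental cells, and 0.0672, 0.119 and 0.112 in Huh7 resistant against 0.109, 0.187 and 0.105 in Huh7 parental cells. Resistant and parental samples overlapped in both lines, while the samples of HepG2 and Huh7 did not. The HepG2 log2 fold change was 0.20 (adjusted p = 0.365), and in Huh7, where BCL2 was below the minimum of 1 FPKM, an exact permutation test gave p = 0.6, two-sided, when 0.1 is the smallest p that 3 against 3 samples allow.

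BAX (ENSG00000087088, chr19:48954815-48961798, plus strand) and BAK1 (ENSG00000030110, chr6:33572547-33580293, minus strand) encode the pore-forming effectors. BAX was 4.62, 3.59 and 3.92 FPKM in Huh7 resistant against 2.37, 2.20 and 2.25 in Huh7 parental cells, and 8.99, 12.1 and 9.91 in HepG2 resistant against 7.01, 7.45 and 5.92 in HepG2 parental cells. Its resistant samples were above its parental samples in both lines, with a log2 fold change of 0.62 (SE 0.114, adjusted p = 0.00143) in Huh7 and 0.54 (SE 0.158, adjusted p = 0.0461) in HepG2. In HepG2 the adjusted p rose to as much as 0.147 when samples were left out in turn. It was over 0.05 in 5 of 6 such fits, all but that without resistant replicate 1. It was 0.0779 with upper-quartile scaling, 0.0988 with median-ratio scaling and 0.0849 when genes of low level were kept. In Huh7 BAX, with a GC content of 60.4%, had a log2 fold change of 0.08 (adjusted p = 0.508) with the GC trend removed. The HepG2 value was then 0.38 (adjusted p = 0.0264).

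BAK1 split the lines. Its FPKM was 15.3, 12.6 and 13.7 in Huh7 resistant against 9.25, 5.21 and 6.83 in Huh7 parental cells, and 6.49, 11.1 and 8.30 in HepG2 resistant against 7.57, 12.7 and 9.28 in HepG2 parental cells. The Huh7 groups were apart and the HepG2 groups overlapped. The log2 fold change was 0.91 (SE 0.179, adjusted p = 0.00203) in Huh7, where it reached 1.09 without parental replicate 1, and -0.17 (adjusted p = 0.618) in HepG2. With the GC trend removed the Huh7 value was 0.35 (adjusted p = 0.0568). BAX and BAK1 together came to 17.9 ± 1.89 FPKM in Huh7 resistant and 9.37 ± 2.12 in Huh7 parental cells, and to 19.0 ± 3.93 and 16.6 ± 3.05 in HepG2 resistant and parental cells (SD, n = 3). BAX made up 54.9% ± 2.99 of that sum in HepG2 resistant, 41.3% ± 5.90 in HepG2 parental, 22.5% ± 0.563 in Huh7 resistant and 25.0% ± 4.67 in Huh7 parental cells. These sums and shares keep the GC trend of the libraries.

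BID (ENSG00000015475, chr22:17734138-17774770, minus strand), the member cut by caspase-8, had the highest fold change of the family in Huh7. It was 33.5, 31.7 and 34.0 FPKM in Huh7 resistant cells and 14.5, 13.9 and 10.6 in Huh7 parental cells, and 10.0, 11.2 and 11.3 in HepG2 resistant against 11.2, 18.0 and 13.8 in HepG2 parental cells. The Huh7 resistant samples were above all 9 other samples, which overlapped one another across groups. The log2 fold change was 1.30 (SE 0.130, adjusted p = 8.0e-05) in Huh7 and -0.35 (adjusted p = 0.193) in HepG2. Without the GC trend it was 0.99 (adjusted p = 0.000109) in Huh7, just under the limit of size, and -0.41 (adjusted p = 0.0360) in HepG2, where BID then passed as lower. Over the fits with 1 Huh7 sample left out the Huh7 value was 1.17 to 1.38.

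BMF (ENSG00000104081, chr15:40087890-40108892, minus strand) went in opposite directions in the lines. It was 8.42, 7.03 and 7.03 FPKM in Huh7 resistant against 4.61, 4.68 and 3.91 in Huh7 parental cells. In HepG2 it was 2.73, 3.13 and 2.99 in resistant against 9.79, 9.25 and 4.12 in parental cells. The groups were apart in each line, but HepG2 parental replicate 3 stood at less than the other HepG2 parental samples, near the Huh7 parental level. The log2 fold change was 0.65 (SE 0.118, adjusted p = 0.00126) in Huh7 and -1.07 (SE 0.272, adjusted p = 0.0285) in HepG2. The HepG2 call was lost, with an adjusted p of 0.0502 to 0.0979, when any single HepG2 sample other than parental replicate 3 was left out, and without parental replicate 3 the value was -1.41 (adjusted p = 0.00263). It was also lost with no filter on low values (adjusted p = 0.0951). In Huh7 the value with the GC trend removed was 0.13 (adjusted p = 0.202). BMF shares 461 exon bases with BMF-AS1 on the opposite strand, and since the library kit is named without a strand setting, reads of such pairs cannot be told apart.

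PMAIP1 (ENSG00000141682, chr18:59899948-59904306, plus strand), which encodes NOXA, fell in HepG2. It was 1.77, 1.05 and 1.25 FPKM in HepG2 resistant against 4.46, 4.08 and 4.86 in HepG2 parental cells. In Huh7 it was 1.84, 2.11 and 1.79 in resistant against 1.70, 2.23 and 1.99 in parental cells. The HepG2 groups were far apart and the Huh7 groups overlapped. The log2 fold change was -1.22 (SE 0.161, adjusted p = 0.00213) in HepG2, with a range of -1.35 to -1.13 over the fits with 1 sample left out, and -0.03 (adjusted p = 0.842) in Huh7. With the GC trend removed, PMAIP1, at 43.6% the member with the lowest GC content, turned to 0.36 (adjusted p = 0.00877) in Huh7.

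BCL2L11 (ENSG00000153094, chr2:111119378-111168447, plus strand), which encodes BIM, had small differences in both lines. Its FPKM was 11, 12.1 and 11 in Huh7 resistant against 17.3, 14.7 and 12.4 in Huh7 parental cells, and 11.9, 13.5 and 13.6 in HepG2 resistant against 12.1, 13.0 and 11 in HepG2 parental cells. The Huh7 groups did not overlap, though only narrowly, and the HepG2 groups did. The log2 fold change was -0.35 (SE 0.130, adjusted p = 0.0411) in Huh7 and 0.10 (adjusted p = 0.618) in HepG2. The Huh7 adjusted p was 0.106 without resistant replicate 1, 0.116 without resistant replicate 3, 0.114 without parental replicate 1, 0.0974 without parental replicate 2 and 0.0723 with no filter on low values. Its Huh7 value without the GC trend was -0.28 (adjusted p = 0.0416). BCL2L11 shares 727 exon bases with MIR4435-2HG on the opposite strand, which stood at 0.872 to 2.22 FPKM over the samples.

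BBC3 (ENSG00000105327, chr19:47220822-47232766, minus strand), which encodes PUMA, was below the minimum in both lines. It was 0.332, 0.179 and 0.265 FPKM in Huh7 resistant against 0.158, 0.131 and 0.0973 in Huh7 parental cells, and 0.371, 0.430 and 0.238 in HepG2 resistant against 0.623, 0.307 and 0.5 in HepG2 parental cells. The Huh7 groups were apart, on 11 to 20 reads against 5 to 9 reads, and the HepG2 groups overlapped. Exact permutation tests gave p = 0.1 in Huh7, the smallest the design allows, and p = 0.4 in HepG2.

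As a pool, the BH3-only transcripts went up in Huh7 and down in HepG2 resistant cells in every sample, and their makeup shifted to BID in Huh7. The 5 BH3-only transcripts summed to 55.1, 53.1 and 54.1 FPKM in Huh7 resistant against 38.3, 35.6 and 29 in Huh7 parental cells. In HepG2 the sum was 26.8, 29.3 and 29.3 in resistant against 38.2, 44.5 and 34.4 in parental cells. All Huh7 resistant sums were above, and all HepG2 resistant sums below, those of their parental cells. BID took 61.1% ± 1.65 of the sum in Huh7 resistant and 37.7% ± 1.27 in Huh7 parental cells, and 38.1% ± 0.517 and 36.6% ± 6.27 in HepG2 resistant and parental cells (SD, n = 3). BCL2L11 took 21.0% ± 1.57 against 43.1% ± 1.94 in Huh7, and 45.6% ± 1.05 against 31.0% ± 1.66 in HepG2. PMAIP1 took 4.82% ± 1.58 in HepG2 resistant and 11.7% ± 2.50 in HepG2 parental cells. These shares are descriptions and carry no test. The sums and shares keep the GC trend of the libraries. With it removed, the Huh7 log2 fold change was 0.99 for BID, 0.36 for PMAIP1, 0.13 for BMF and -0.28 for BCL2L11.

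**Figure D3:**
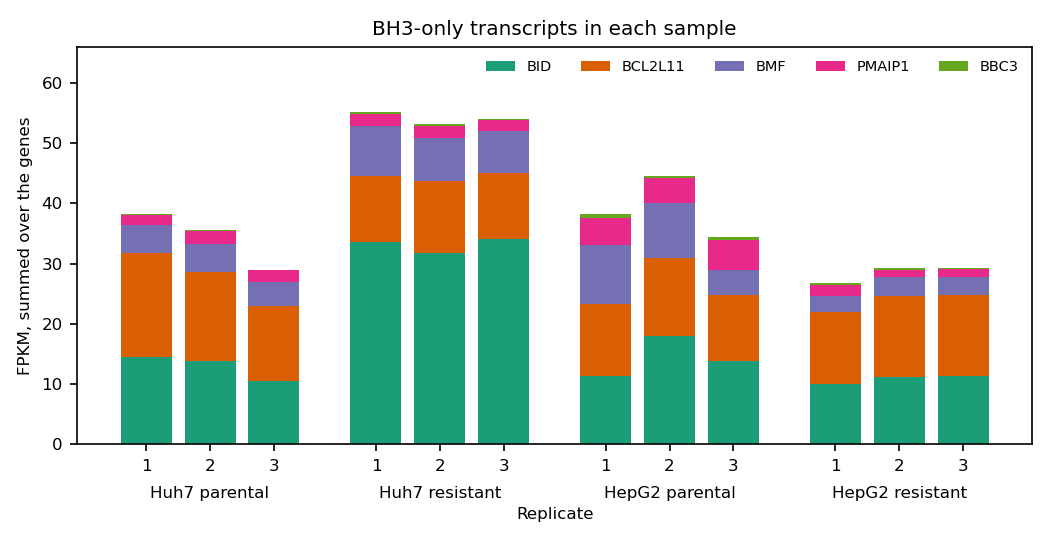
FPKM of the 5 BH3-only transcripts, stacked, in each of the 12 samples (bars start at 0). The Huh7 resistant bars reach 53.1 to 55.1, mostly BID, and the HepG2 resistant bars stop at 26.8 to 29.3.

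Set against its partners, MCL1 was lower in resistant cells on every ratio but that to PMAIP1 in HepG2. MCL1 per unit of BH3-only FPKM was 0.601 ± 0.113 in Huh7 resistant and 1.33 ± 0.147 in Huh7 parental cells, and 1.13 ± 0.121 and 1.73 ± 0.316 in HepG2 resistant and parental cells. MCL1 per unit of BAX and BAK1 was 1.84 ± 0.494 against 4.98 ± 1.05 in Huh7 and 1.75 ± 0.451 against 4.08 ± 0.735 in HepG2. MCL1 per unit of PMAIP1 was 24.5 ± 4.89 in HepG2 resistant and 14.9 ± 1.15 in HepG2 parental cells, since PMAIP1 fell by more, and 16.9 ± 2.04 against 23.3 ± 3.89 in Huh7 (SD, n = 3). The ratios keep the GC trend of the libraries. With it removed, the Huh7 log2 fold changes of BAX (0.08) and BAK1 (0.35) did not pass, while MCL1 (-0.30) and BID (0.99) did. Ratios of transcripts do not give ratios of proteins.

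Whether resistance moved a member differently in the lines was tested by the interaction, the Huh7 log2 fold change less the HepG2 one, in a fit over all 12 samples. Of 8 members tested, 6 had an adjusted p under 0.05, where 56.3% of all genes did. BMF had an interaction of 1.72 (SE 0.325, adjusted p = 0.00108), BID 1.65 (SE 0.222, adjusted p = 0.000131), PMAIP1 1.20 (SE 0.179, adjusted p = 0.000251), BAK1 1.08 (SE 0.320, adjusted p = 0.0136) and MCL1 0.55 (SE 0.173, adjusted p = 0.0181). These 5 also passed with the GC trend removed and with median-ratio scaling. BCL2L11, at -0.45 (adjusted p = 0.0427), did not pass with median-ratio scaling (adjusted p = 0.165) or with the GC trend removed (adjusted p = 0.0838), nor in 8 of the 12 fits with 1 sample left out, those that kept it being without replicate 2 of Huh7 resistant, replicate 3 of Huh7 parental, replicate 1 of HepG2 resistant or replicate 2 of HepG2 parental cells. BCL2, at -0.24 (adjusted p = 0.139), passed without HepG2 parental replicate 3 (adjusted p = 0.0436). For BAX the lines did not differ detectably, with an interaction of 0.08 and a 95% interval of -0.31 to 0.48. The median interaction of all genes was -0.16, and it was -0.03 after median-ratio scaling.

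Between the parental lines, Huh7 had less of several members than HepG2. BAX was called, with a log2 difference of -1.25 (SE 0.127, adjusted p = 4.5e-06), where 30.2% of all genes were called. BCL2 (-0.82), PMAIP1 (-0.88), BMF (-0.62) and MCL1 (-0.55) were also lower in Huh7 with an adjusted p under 0.05, so that 5 of 8 members passed, where 67.2% of all genes did, and BAK1, BID and BCL2L11 did not pass, although BAK1 did without Huh7 parental replicate 1 (-0.61, adjusted p = 0.0387) and BCL2L11 without Huh7 parental replicate 3 (0.38, adjusted p = 0.0165). BMF lost its pass, with an adjusted p of 0.0544 to 0.132, when any of the 3 Huh7 parental samples or HepG2 parental replicate 1 or 2 was left out. On the linear scale the BCL2 means were 0.134 and 1.00 FPKM, which the pseudocount of 1 compresses. The median difference of all genes was 0.17, and 0.06 after median-ratio scaling.

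Between the resistant lines, 4 members were called, where 26.6% of all genes were. BID was 1.53 (SE 0.157, adjusted p = 5.6e-06) and BMF 1.10 (SE 0.230, adjusted p = 0.00136) higher in Huh7 on the log2 scale. BAX (-1.16) and BCL2 (-1.06) were lower in Huh7. With the GC trend of each library removed, BCL2 (-0.94) and BMF (0.91) fell short of the limit of size, which left 2 called. Of all genes, 3583 of 13791 were called then. The GC step works within each line, so a GC trend between the lines remains. BAK1 (0.65) and PMAIP1 (0.32) passed the adjusted p at a smaller size, so that 6 of 8 members passed, where 64.1% of all genes did, but BAK1 not without resistant replicate 1 or 3 of either line (adjusted p up to 0.0972), and PMAIP1 not in 8 of the 12 fits with 1 sample left out (up to 0.171, the exceptions being those without HepG2 resistant replicate 1, HepG2 parental replicate 2 or 3 or Huh7 parental replicate 1) or with limma-voom (0.0803). MCL1 stood at 32.4 ± 5.49 FPKM in Huh7 resistant and 32.0 ± 2.24 in HepG2 resistant cells (SD, n = 3), a log2 difference of 0.01 with a 95% interval of -0.26 to 0.28. The parental and resistant comparisons use the samples of the within-line comparisons, and none is independent of the others.

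Patterns over the 12 samples were compared for the 4 members called in a line, by the root mean square difference of centred log2(FPKM + 1). Each was set against every other gene that reached 1 FPKM in 3 or more of the 12 samples. The closest to BID were UBE2M, KCNE3 and CNOT11, at 0.0943 to 0.115. Those of MCL1 were CCDC50, DNAJC6 and ITPR1, at 0.133 to 0.140, and those of PMAIP1 were FGG, IFIT5 and MPZL3, at 0.130 to 0.141. LURAP1L, SLC50A1 and SERPINB9 were nearest to BMF, at 0.183 to 0.201. The members' own root mean square variation was 0.441 for MCL1, 0.470 for PMAIP1, 0.526 for BMF and 0.614 for BID.

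Other apoptosis genes were read from 7 lists of 70 genes, of which 69 were in the tables and 50 were tested in each line. In Huh7, 20 rose, 14 fell and 16 did not pass, with a median log2 fold change of 0.21, and 70.1% of all genes passed. In HepG2, 8 rose, 8 fell and 34 did not pass, with a median of -0.03, and 20.0% of all genes passed. After this GC correction 23 rose and 11 fell in Huh7, and 11 rose and 14 fell in HepG2. Of all genes in those corrected fits, 7982 of 12545 passed in Huh7 and 4048 of 11756 in HepG2. In Huh7, 8 pathway genes were called, where 22.6% of all genes were. With the GC trend removed 5 were called there, where 1433 of 12545 genes were. In HepG2, 5 were called, where 6.27% of all genes were.

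Upstream of BID, 4 of the 10 death receptor genes tested in Huh7 rose, 1 fell and 5 did not pass, where 70.1% of all genes passed. TNFRSF1A, the main TNF receptor, went from 4.17 ± 1.02 to 27.5 ± 2.66 FPKM, a log2 fold change of 2.47 (adjusted p = 1.2e-05). TNFRSF10A, a TRAIL receptor, went from 3.31 ± 0.315 to 19.5 ± 0.876 FPKM, a log2 fold change of 2.25 (adjusted p = 4.5e-06). CASP8, the caspase that cuts BID, went from 4.11 ± 0.292 to 9.36 ± 0.649 FPKM, a log2 fold change of 1.02 (adjusted p = 9.4e-05). TNFRSF10B, a second TRAIL receptor, rose by less (0.62, adjusted p = 0.00229). TNFRSF1A, TNFRSF10A and CASP8 were above 1 on the log2 scale with the GC trend removed (1.96, 1.95 and 1.42), although CASP8 was just under 1 (0.97 at the lowest) without Huh7 resistant replicate 2 or 3 or parental replicate 2. In HepG2, 1 of 11 rose, 1 fell and 9 did not pass, where 20.0% of all genes passed. FAS, the receptor of FAS ligand, rose there from 4.74 ± 1.16 to 10.7 ± 2.09 FPKM (log2 fold change 1.03, adjusted p = 0.0107) and was at least 0.86 with 1 sample left out, under 1 without resistant replicate 1 or parental replicate 2. TNFRSF10A fell in HepG2 from 18.3 ± 2.98 to 10.6 ± 1.23 FPKM (log2 fold change -0.72, adjusted p = 0.0177, up to 0.0515 with 1 sample left out). The interaction passed for TNFRSF1A (2.51), TNFRSF10A (2.98), CASP8 (1.06) and FAS (-1.08).

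Downstream of the pore, all 4 inhibitor of apoptosis genes tested passed in Huh7, where 70.1% of all genes passed. With the GC trend removed, where 7982 of 12545 genes passed, 3 of these 4 did. In HepG2, where 20.0% of all genes passed, their adjusted p was 0.182 to 0.926. BIRC2, which encodes the ubiquitin ligase cIAP1, went from 20.6 ± 2.59 to 5.85 ± 0.547 FPKM in Huh7 (log2 fold change -1.66, adjusted p = 2.7e-05). BIRC6 fell by 1.11 and XIAP, the direct caspase inhibitor, fell by 0.59 on the log2 scale, while BIRC5, which encodes survivin, rose by 0.85. With the GC trend removed BIRC2 was -0.88, BIRC6 -0.57 and BIRC5 0.52, each with an adjusted p under 0.05, and XIAP turned to 0.14 (adjusted p = 0.175). Of the cytochrome c, apoptosome and caspase genes, 5 of 9 rose and 2 fell in Huh7. APAF1, the scaffold of the apoptosome, fell from 9.60 ± 0.298 to 4.19 ± 1.07 FPKM (log2 fold change -1.05, adjusted p = 0.000393). With the GC trend removed APAF1 was -0.41 (adjusted p = 0.0117), and it was -0.91 without Huh7 resistant replicate 1. In HepG2, CASP6 (0.73) and CASP2 (0.54) rose, with an adjusted p of up to 0.0709 and 0.159 with 1 sample left out, and 7 of 9 did not pass.

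Genes that act on BAX, BAK1 or MCL1 at the membrane or by ubiquitin went in mixed directions. Among 8 mitochondrial membrane and fission genes, 3 rose and 2 fell in Huh7, and 3 rose in HepG2. Of all genes tested, 70.1% passed in Huh7 and 20.0% in HepG2. With the GC trend removed 5 of these 8 rose and 2 fell in Huh7, and 4 rose in HepG2. Among all genes in those corrected fits, 7982 of 12545 passed in Huh7 and 4048 of 11756 in HepG2. DNM1L, the fission GTPase, went from 27.2 ± 3.49 to 9.56 ± 0.698 FPKM in Huh7 (log2 fold change -1.41, adjusted p = 4.3e-05, -0.81 with the GC trend removed) and from 9.32 ± 1.85 to 15.9 ± 3.91 FPKM in HepG2 (0.70, adjusted p = 0.0457, up to 0.110 with 1 sample left out). Of 6 enzymes that add or remove ubiquitin on MCL1 or BIM, FBXW7 (-0.60), MARCHF5 (-0.50) and USP13 (-0.31) fell in Huh7, and USP13 (-0.54) fell in HepG2. Without the GC trend these Huh7 values were -0.12 for FBXW7, 0.28 for MARCHF5 and -0.16 for USP13, all with an adjusted p over 0.05. BOK, an effector of the family outside the 10 members, went from 9.19 ± 4.32 to 27.0 ± 12.1 FPKM in HepG2 (log2 fold change 1.42, adjusted p = 0.0398), with an adjusted p of up to 0.128 with 1 sample left out, over 0.05 without HepG2 resistant replicate 2 or 3 or parental replicate 1 or 2. Of the 11 further family genes listed, 3 were tested in Huh7 and 2 in HepG2; BCL2L2, BCL2A1, BAD, BIK and HRK were below the minimum in both.

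Among the transcription factors and cofactors known to act on BH3-only genes, 6 of 10 rose and 2 fell in Huh7, where 70.1% of all genes passed, and 1 rose and 5 fell in HepG2, where 20.0% did. In Huh7 4 rose and 3 fell with the GC trend removed, where 7982 of 12545 genes passed. MYC went from 284 ± 21.5 to 89.3 ± 8.74 FPKM in HepG2 (log2 fold change -1.66, adjusted p = 0.000424) and from 33.5 ± 3.69 to 62.5 ± 9.64 FPKM in Huh7 (0.88, adjusted p = 0.000674, and 0.34 with the GC trend removed). FOXO3, a forkhead factor, fell in HepG2 from 19.2 ± 3.53 to 5.49 ± 0.113 FPKM (log2 fold change -1.63, adjusted p = 0.000709) and by 0.40 on the log2 scale in Huh7 (adjusted p = 0.0246, up to 0.0959 with 1 sample left out). TRIB3, a target and inhibitor of the stress factor ATF4, fell in HepG2 from 398 ± 119 to 156 ± 20.8 FPKM (log2 fold change -1.30, adjusted p = 0.00881) and rose in Huh7 from 41.3 ± 8.12 to 83.0 ± 9.13 FPKM (1.00, adjusted p = 0.000730, 0.49 with the GC trend removed, and under 1 without resistant replicate 1 or 3 or parental replicate 3). The interaction passed for MYC (2.54), TRIB3 (2.31) and FOXO3 (1.23).

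**Figure D4:**
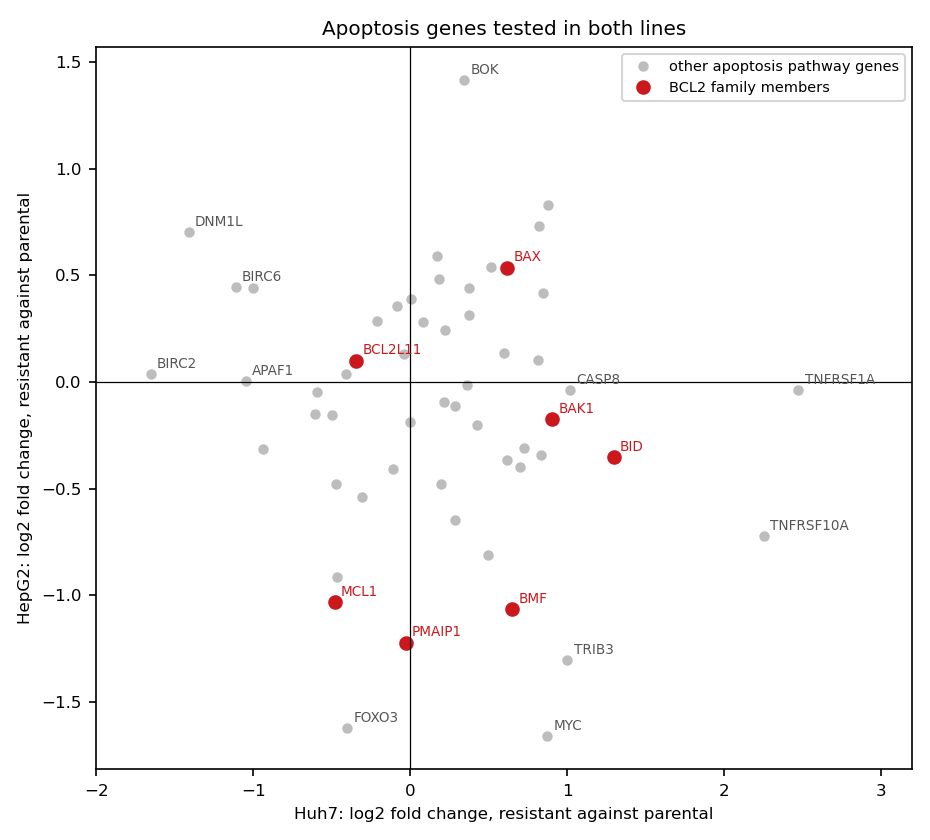
Log2 fold change of resistant against parental cells in Huh7 (horizontal) and HepG2 (vertical) for 7 members (red) and 49 other apoptosis genes (grey) tested in both lines, with members and called genes named. BAX is the one member with positive values on both axes, BMF and BID lie at the lower right, and TNFRSF1A and TNFRSF10A at the far right.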

How the data were processed

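RNA from 12 samples, 3 each of Huh7 resistant, Huh7 parental, HepG2 resistant and HepG2 parental cells, was sequenced from NEBNext Ultra libraries. The authors deposited FPKM per gene, 1 table a sample with 98711 genes (27249 with an Ensembl identifier, used here, and 71462 others). The processing notes name GRCh38; aligner, counter and annotation are not given in the sources used here. The labels name an RNeasy kit, the methods TRIzol. FPKM times GENCODE 29 exon length gave whole reads, within 0.05, for 96.3% to 96.5% of values of up to 2000 reads, so depth was recovered. As FPKM is relative to the library total, a large change in a few genes shifts the rest.

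limma 3.58.1 (R 4.3.3) was fitted to log2(FPKM + 1) with a mean trend, on genes that reached 1 FPKM in 3 or more samples, each line separately, or all 12 samples for interaction and line comparisons, with Benjamini-Hochberg adjustment over all genes tested. The pseudocount of 1 understates changes of low genes. Members below the minimum had an exact permutation test. Named genes were all members, pathway genes called in a line, and the 3 nearest genes by pattern; other pathway genes named were chosen after their values were seen. Alternatives were a pseudocount of 0.1, no filter, a minimum of 10 reads throughout, and median-ratio and upper-quartile scaling. Others were limma-voom on reads, no trend, the replicate block, 1 fit of all samples, and leaving out each sample. A lowess (span 0.3) GC correction was also run. It took each library against the mean of its own line, so a GC trend between the lines remains. The members and lists were chosen with earlier results of these data known, and the counts by adjusted p alone were added after seeing the data. The fits were tested on simulated data. Promoters were taken from RefSeq (GRCh38.p14), where 8 of the members had an entry. Some listed pathway genes are not reported here by name.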

Additional observations from a re-analysis of the deposited data

Results flagged for a closer look

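In 6 members the change from parental to resistant cells differed between the lines, by the interaction in limma over all 12 samples (Huh7 log2 fold change less that of HepG2). BMF (1.72) and BID (1.65) had the largest values of the 8 members tested. BMF was higher in 3 of 3 Huh7 resistant samples than in any Huh7 parental sample and lower in 3 of 3 HepG2 resistant samples than in any HepG2 parental sample. For PMAIP1 (1.20) the HepG2 groups were apart and the Huh7 groups overlapped, and for BAK1 (1.08) it was the reverse. MCL1 (0.55) was lower in all 6 resistant samples than in the parental samples of their line, by more in HepG2. BCL2L11 had the smallest value of the 6 (-0.45), and it alone of the 6 lost its pass under some alternatives, while the other 5 passed under every alternative run. Across all genes 56.3% passed the same test.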

How the results depend on the processing

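Of the members' log2 differences under the alternatives, 24 lost the call, 7 gained it and 14 turned in sign. The call was by adjusted p and size, and for the interaction by adjusted p alone. The other 699 kept direction and call, but 38 of them lost the adjusted p under 0.05 and 5 gained it, while 656 stayed on its side. Removing the GC trend left 0 members called in Huh7 and 5 pathway genes, and 1433 of all genes in place of 2838. It turned PMAIP1 in Huh7 (0.36) and the BAX interaction (-0.26). It left 2 members called between the parental lines, with 3736 of 13791 genes, and 2 between the resistant lines, with 3583 of 13791. A GC trend between the lines was not removed there. Between the parental lines 3 members were called with a pseudocount of 0.1, where 5558 of 13800 genes were called. With limma-voom on reads 3 members were called there, where 5702 of 13798 genes were. limma-voom called 4276 of all genes in Huh7 and 1177 in HepG2. In HepG2 2 members passed the adjusted p alone with no filter on low values, where 1622 of 24827 genes passed. In the main fit 4 members had, where 2357 of 11762 genes passed. With 1 sample left out, called members ranged from 1 to 2 in Huh7 and from 1 to 2 in HepG2, called pathway genes from 6 to 11 in Huh7 and from 3 to 5 in HepG2, and HepG2 members past the adjusted p from 2 to 3. All genes called in those fits ranged from 2133 to 3006 in Huh7 and from 590 to 804 in HepG2. All HepG2 genes past the adjusted p ranged from 840 to 2224. The other values that turned in sign belonged to differences that did not pass. With 1 sample left out PMAIP1 in Huh7 ran from -0.0961 to 0.0346, BAK1 in HepG2 from -0.3516 to 0.0085, the BAX interaction from -0.0035 to 0.1926, BID between parental lines from -0.2740 to 0.0415 and MCL1 between resistant lines from -0.1068 to 0.1332. The rest were MCL1 between resistant lines with upper-quartile scaling (-0.0011) and limma-voom (-0.0262), and BCL2L11 in HepG2 with median-ratio scaling (-0.0055). The causes were not tested. Median-ratio scaling moved the mean of MCL1 in Huh7 parental cells to 42.9 and that of BAX to 2.16 FPKM. Whether the replicate numbers pair the samples was not settled. Deviations of same-numbered resistant and parental samples had correlations of 0.0843, 0.0620 and -0.2282 in Huh7 and 0.2460, 0.4375 and -0.0110 in HepG2. Between samples of different numbers they were -0.3345 to 0.2821 in Huh7 and -0.4234 to 0.2098 in HepG2. The replicate block moved all genes with an adjusted p under 0.05 from 2357 to 3418 in HepG2 and from 8797 to 8609 in Huh7. With the replicate block 1 member was called in Huh7 and 3 in HepG2, and BCL2L11 lost its interaction (adjusted p = 0.0592), leaving 5, and PMAIP1 its pass between the resistant lines (adjusted p = 0.0785); all genes called were 2841 in Huh7 and 779 in HepG2. Depth limits BBC3 and, in Huh7, BCL2.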
